A study of Mus musculus with 24 samples.

Results

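Laminins are the trimeric proteins on which basement membranes are built, and integrins are the paired cell-surface receptors that hold cells to laminins, to other matrix proteins and to ligands on other cells. The 35 genes described here are those whose symbols name a laminin chain (Lam followed by a, b or c and a number) or an integrin subunit (Itga followed by a number or letter, Itgb followed by a number), out of 14537 genes in each count table. They comprise 10 laminin chains, 17 integrin alpha subunits and 8 integrin beta subunits, and Lama1 and Itgad were not analysed here. Their RNA was measured in male C57BL/6J mice by bulk sequencing of skeletal muscle and of heart, in a study of pancreatic cancer cachexia, the wasting that accompanies this cancer, and of its treatment. KPC+GnP mice carried orthotopic implants, placed in the pancreas, of the mouse pancreatic cancer line KPC32908 and received gemcitabine, a nucleoside analogue, plus nab-paclitaxel, an albumin-bound microtubule drug. KPC mice carried the same cells and received vehicle. Control mice had sham surgery and are labelled as given no treatment, although their labels list the cell line too, so KPC against control covers the tumour and the vehicle together. The model rests on 1 cell line, and the ages of the mice are not in the labels. Each group had 4 libraries per tissue, 24 in all, from 16 animals as numbered in the library titles, of which 8 gave both tissues.

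A laminin trimer joins an alpha, a beta and a gamma chain. Lama2 is the alpha chain of the basement membrane around muscle fibres, where its loss causes a congenital muscular dystrophy, and Lama4 and Lama5 are the alpha chains of vessel walls. An integrin joins an alpha and a beta subunit, and Itga7 with Itgb1 is the main laminin-binding integrin of muscle fibres, beside the non-integrin laminin receptor dystroglycan (Dag1). Other pairs bind collagens (Itga1, Itga2, Itga10 or Itga11 with Itgb1), fibronectin and related ligands (Itga5 with Itgb1, or Itgav with Itgb3, Itgb5, Itgb6 or Itgb8), or belong to blood cells (Itgb2 with Itgal, Itgam or Itgax on leukocytes, Itga2b with Itgb3 on platelets).

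A muscle library held 18285396 to 27382432 counts, and a heart library held 11020931 to 20969551. In muscle the range was 26031716 to 27382432 for KPC, 18285396 to 21379175 for KPC+GnP and 19211505 to 26209388 for control. The muscle scaling factors (trimmed mean of M values) were 0.850 to 0.938 for KPC, 1.04 to 1.11 for KPC+GnP and 0.994 to 1.04 for control. The summed level of 8 skeletal muscle fibre markers was 117092 to 194954 CPM (counts scaled to library size by the trimmed mean of M values) in the 12 muscle libraries and that of 7 cardiomyocyte markers was 34228 to 75805 CPM in the 12 heart libraries. The muscle library KPC 1 lay apart from the other KPC muscle libraries for several members. It is also the library whose count column differs in name from its sample's title by a final digit. The heart library KPC 4, from the same animal, lay close to the control hearts for several members. The heart library KPC 2 held the highest levels of blood-cell markers, with 750 CPM for 6 leukocyte markers summed, against 63.2 to 135 CPM in the other KPC hearts. Values without these libraries are given beside the results named with them.

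Per unit of gene length, in the deposited FPKM, the most abundant laminin chains of control muscle were Lamb2, at 21.8 ± 0.922 FPKM (SD, n = 4), Lamc1, at 21.02 ± 1.41 FPKM, and Lama2, at 6.92 ± 0.789 FPKM. Lamb2 and Lamc1 did not differ beyond their spread. The most abundant alpha subunit of control muscle was Itga7, at 23.5 ± 0.663 FPKM, ahead of Itgav at 7.48 ± 0.387 FPKM and Itga6 at 5.55 ± 1.47 FPKM. Among beta subunits Itgb1, the common partner of the matrix-binding alpha subunits, led at 77.3 ± 2.59 FPKM, before Itgb5 at 34.4 ± 1.66 FPKM and Itgb6 at 11.5 ± 2.59 FPKM. The control heart had Lamb2 at 51.2 ± 2.35 FPKM, Lamc1 at 26.8 ± 3.50 FPKM and Lamb1 at 16.4 ± 2.25 FPKM as its leading laminin chains. Its leading alpha subunits were Itga7 at 34.5 FPKM, Itga6 at 14.9 ± 0.465 FPKM and Itga9 at 12.2 ± 1.14 FPKM, and its leading beta subunits were Itgb1 at 105 ± 1.06 FPKM, Itgb5 at 26.3 ± 1.07 FPKM and Itgb6 at 5.31 ± 1.25 FPKM. The FPKM of the 2 tissues come from tables normalized separately. Itga2, Itgae and Itgb8 had at most 16, 16 and 12 counts in any muscle library and were left untested in muscle, so 32 members were tested there and all 35 in heart.

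In KPC against control muscle, 12 of the 32 members tested passed an edgeR adjusted p of 0.05, with 11 lower and 1 higher. Over all 12760 genes tested in this comparison 49.7% passed, 27.5% higher and 22.1% lower, and the median log2 fold change was −0.48 for the members and −0.0026 for all genes. The members lower in KPC muscle were 2 laminin chains (Lama4 and Lamb1), 6 alpha subunits (Itga1, Itga4, Itga8, Itga9, Itga11 and Itgav) and 3 beta subunits (Itgb1, Itgb6 and Itgb7), and the higher one was Itgb5. Of the 32 members tested, 10 had all KPC libraries below all control libraries, against 17.4% of all genes. For 0 of the 32 they all lay above, against 19.8% of all genes. In bulk tissue, fewer cells of a type and less RNA per cell cannot be told apart.

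In KPC+GnP against KPC muscle, 13 of 32 members passed, with 12 higher and 1 lower, against 49.8% of all genes, 23.1% higher and 26.7% lower. The median log2 fold change was 0.64 for the members and 0.023 for all genes. All KPC+GnP libraries lay above all KPC libraries for 9 members, against 15.9% of all genes, and below them for 0, against 17.8%. This comparison and the one with control share the KPC libraries, so opposite signs in them are not independent observations. In KPC+GnP against control muscle edgeR called 0 of 32 members and 0% of all genes. None of the members had an unadjusted p under 0.05 there, against 3.24% of all genes, and DESeq2 and limma also called 0 members, with 1 and 0 of all genes. Groups did not overlap for 0 members, against 4.4% of all genes. The all-gene median depends on the scaling. Scaled by library totals alone it was −0.17 for KPC against control, where 13 members were then lower and 0 higher, against 31.8% of all genes lower and 18.1% higher. For KPC+GnP against KPC it was 0.27, where 16 members were then higher and 0 lower, against 38.4% of all genes higher and 13.9% lower.

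**Figure D1:**
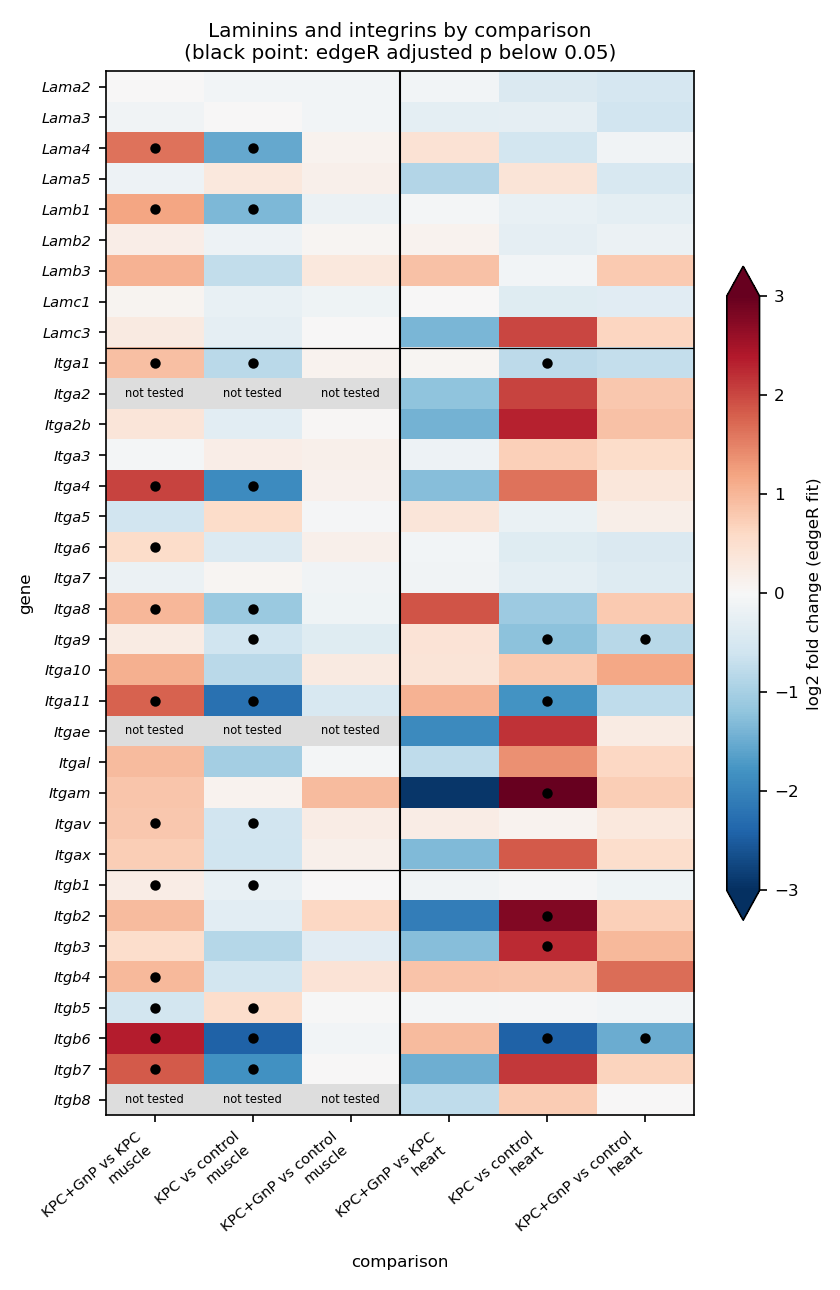
Log2 fold changes from the edgeR fits (colour, cut at 3 on either side) of laminin and integrin genes (vertical axis) in 6 comparisons (horizontal axis), with a black point where the edgeR adjusted p was below 0.05 and grey where the gene was not tested. In muscle the column for KPC against control holds 12 points, 11 of them blue, the column for KPC+GnP against KPC holds 13, 12 of them red, and the column for KPC+GnP against control holds 0.

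The promoters of 4 members that moved in muscle are printed here to show the sequence at the start of genes that moved the same way and of 1 that moved the other way. Of the 35 members, 23 had a window in the RefSeq promoter table (GRCm38.p6, 250 bases before to 50 after the start, 32851 windows), and Lama4 is not among them. The 3 members lower in KPC muscle come first, and Itgb5, which was higher, comes last. The windows are Lamb1 at chr12:31265043-31265342 (plus strand), Itgb6 at chr2:60722554-60722853 (minus strand), Itga4 at chr2:79255176-79255475 (plus strand) and Itgb5 at chr16:33829415-33829714 (plus strand), each written 5′ to 3′ along its gene with GC boxes in capitals.
Lamb1: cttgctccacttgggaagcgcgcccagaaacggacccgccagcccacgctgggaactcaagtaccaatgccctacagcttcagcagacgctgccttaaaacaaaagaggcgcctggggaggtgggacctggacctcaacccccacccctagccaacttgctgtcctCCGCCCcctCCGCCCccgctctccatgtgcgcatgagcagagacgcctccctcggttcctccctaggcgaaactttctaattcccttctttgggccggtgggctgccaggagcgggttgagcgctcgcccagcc
Itgb6: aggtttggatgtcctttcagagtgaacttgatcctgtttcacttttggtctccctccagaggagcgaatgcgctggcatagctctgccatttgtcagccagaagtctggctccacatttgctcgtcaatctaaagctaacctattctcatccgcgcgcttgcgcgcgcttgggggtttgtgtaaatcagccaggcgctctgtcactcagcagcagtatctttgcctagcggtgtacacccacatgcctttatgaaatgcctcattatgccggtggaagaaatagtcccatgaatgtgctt
Itga4: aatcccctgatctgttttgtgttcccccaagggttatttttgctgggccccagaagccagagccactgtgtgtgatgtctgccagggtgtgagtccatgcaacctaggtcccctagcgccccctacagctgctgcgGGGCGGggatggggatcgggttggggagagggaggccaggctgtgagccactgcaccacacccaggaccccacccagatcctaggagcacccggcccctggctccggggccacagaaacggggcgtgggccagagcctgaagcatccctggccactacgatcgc
Itgb5: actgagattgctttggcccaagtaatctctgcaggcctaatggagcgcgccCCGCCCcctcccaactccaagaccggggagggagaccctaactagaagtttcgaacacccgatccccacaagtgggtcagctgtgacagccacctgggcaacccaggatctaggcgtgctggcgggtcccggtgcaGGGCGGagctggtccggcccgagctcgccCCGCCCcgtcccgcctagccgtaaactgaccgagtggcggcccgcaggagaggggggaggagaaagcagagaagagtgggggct
The GC box, GGGCGG on either strand, occurred 2 times in the Lamb1 window, 0 times in that of Itgb6, 1 time in that of Itga4 and 3 times in that of Itgb5, and the windows held 63.7%, 50.3%, 64.3% and 65.7% G or C. It was present in 11 of the 23 member windows and in 35.7% of all windows. A TATA box, searched as TATAAA, was present in 0 of 23 and 13.6% of all windows, and the forkhead motif GTAAACA in 0 of 23 and 3.65%. An AP-1 motif, TGANTCA, was present in 2 of 23 and 7.81%, an E-box, CANNTG, in 19 of 23 and 72.3%, and the glucocorticoid half-site TGTTCT in 5 of 23 and 19.0%, each on either strand. These are matches of letters and describe no binding.

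Among laminin chains, Lama4 (chromosome 10, 38965515 to 39110188, GRCm38), the alpha chain of vessel and peripheral nerve basement membranes, had 22.5, 28.7, 31.6 and 29.7 CPM in KPC+GnP muscle, 13.2, 5.61, 7.82 and 9.75 CPM in KPC muscle and 22.5, 22.5, 34.5 and 25.6 CPM in control muscle. Every KPC library was below every library of the other groups, and KPC+GnP and control overlapped. The log2 fold change was −1.53 for KPC against control (SE 0.23, edgeR adjusted p = 0.000522) and 1.63 for KPC+GnP against KPC (SE 0.23, edgeR adjusted p = 0.000465). Lamb1 (chromosome 12, 31265234 to 31329644), a beta chain that can pair with it, had 16.3, 28.3, 23.4 and 25.2 CPM in KPC+GnP muscle, 15.1, 7.52, 8.48 and 10.3 CPM in KPC muscle and 26.4, 21.7, 34.1 and 22.7 CPM in control muscle. The KPC libraries were again the lowest, with KPC 1 just under the lowest KPC+GnP library. Its log2 fold change was −1.34 for KPC against control (SE 0.23, edgeR adjusted p = 0.000937) and 1.17 for KPC+GnP against KPC (SE 0.23, edgeR adjusted p = 0.00176). Both genes passed in both comparisons under every alternative run.

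Lama2, the alpha chain around muscle fibres, did not pass in muscle with the 3 groups in 1 fit, and neither did Lamc1 or Lamb2. Lama2 had 42.4, 53.5, 48.3 and 48.0 CPM in KPC+GnP muscle, 29.7, 52.1, 48.4 and 61.9 CPM in KPC muscle and 51.1, 44.0, 59.8 and 49.1 CPM in control muscle. The groups overlapped, with KPC 1 the lowest. Its log2 fold change was −0.09 for KPC against control (SE 0.18, edgeR adjusted p = 0.71) and 0.000915 for KPC+GnP against KPC (SE 0.18). Lamc1, the gamma chain of most laminins, had 92.2, 127, 109 and 115 CPM in KPC+GnP muscle, 74.2, 120, 105 and 120 CPM in KPC muscle and 112, 119, 135 and 121 CPM in control muscle. Lamc1 overlapped between all groups, at a log2 fold change of −0.22 for KPC against control (SE 0.15, edgeR adjusted p = 0.246). Lamb2, the beta chain enriched at neuromuscular junctions, had 95.4, 95.6, 92.4 and 102 CPM in KPC+GnP muscle, 97.1, 80.4, 76.0 and 82.0 CPM in KPC muscle and 89.9, 88.5, 98.3 and 96.3 CPM in control muscle. Only the KPC 1 library reached the level of the other groups for Lamb2. KPC against control was at −0.15 with it (SE 0.10, edgeR adjusted p = 0.2) and at −0.25 without it (edgeR adjusted p = 0.00928), and that of KPC+GnP against KPC was 0.20 with it (SE 0.10, edgeR adjusted p = 0.096) and 0.28 without it (edgeR adjusted p = 0.00432). Lama5, the alpha chain of mature vessels, ranged from 23.6 to 39.8 CPM in KPC+GnP muscle, from 30.5 to 41.3 CPM in KPC muscle and from 24.1 to 33.6 CPM in control muscle, and did not pass in any muscle comparison. Lama3 and Lamb3, known mainly from epithelia, and Lamc3 had no library above 3.62 CPM in muscle and did not pass.

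Set against each other as shares of FPKM, the alpha chains of KPC muscle were 16.3 ± 7.67% Lama4 (SD, n = 4), against 37.2 ± 3.28% in KPC+GnP muscle and 35.4 ± 3.16% in control muscle. Lama2 made up 39.7 ± 2.68% of alpha chains in KPC+GnP muscle, 50.4 ± 8.69% in KPC muscle and 43.02 ± 2.24% in control muscle, and Lama5 made up 21.6 ± 4.48%, 31.2 ± 3.79% and 19.99 ± 3.18% in the same order of groups. Of the beta chains Lamb1 made up 18.7 ± 3.40% in KPC+GnP muscle, 10.5 ± 2.03% in KPC muscle and 21.1 ± 2.92% in control muscle. Lamc1 was 95.3 to 97.6% of gamma chains in every muscle library. The share of Lama4 ran from 9.14 to 27.2% over the KPC libraries, and its highest value was below the lowest control share, 32.5%. These shares are given as a description with no test.

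**Figure D2:**
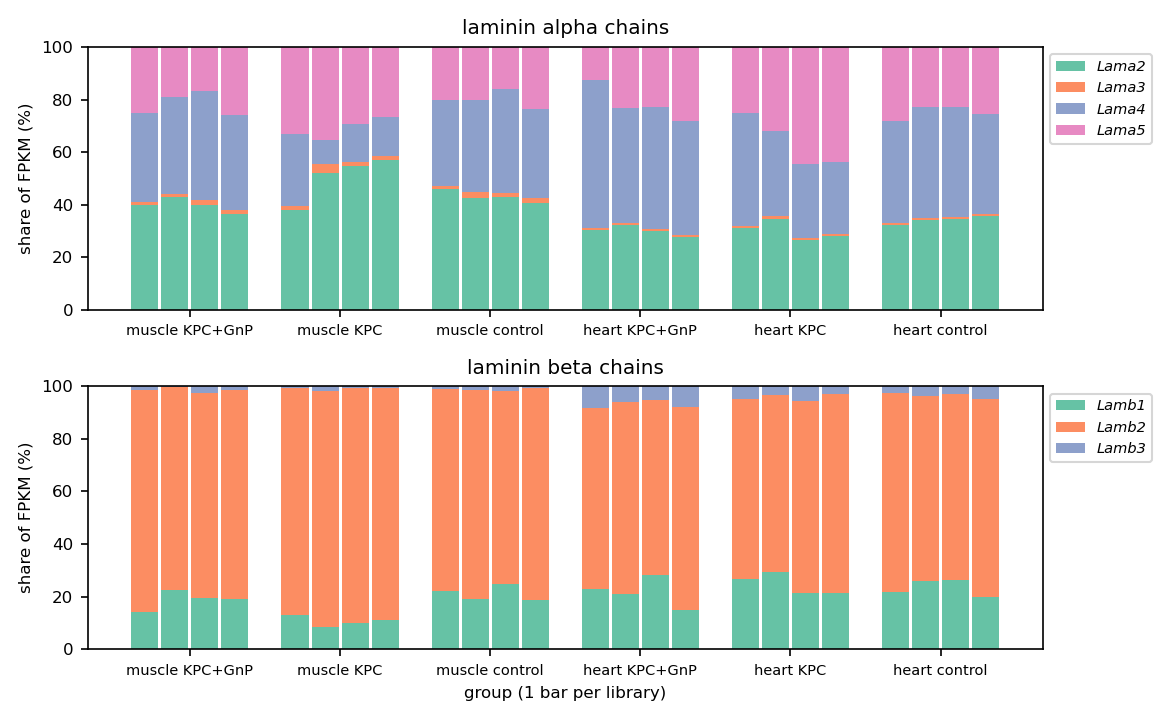
Share of the summed FPKM (vertical axis, percent) held by each laminin alpha and beta chain in each of the 24 libraries (1 bar per library, grouped as KPC+GnP, KPC and control in muscle and then in heart). In muscle the Lama4 band of the alpha chains is narrower in KPC libraries, at 9.14 to 27.2%, than in KPC+GnP and control libraries, and the Lamb1 band likewise.

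The integrins that contain Itgav bind fibronectin, vitronectin and latent TGF-beta, and their subunits moved in opposite directions in muscle. Itgb6 (chromosome 2, 60598292 to 60722643), a beta subunit known mainly from epithelia that activates latent TGF-beta, had 43.6, 50.6, 38.8 and 36.4 CPM in KPC+GnP muscle, 22.7, 2.42, 4.504 and 3.55 CPM in KPC muscle and 29.9, 46.2, 54.3 and 47.6 CPM in control muscle. KPC 1, at 22.7 CPM, stood between the other KPC libraries and both other groups, which overlapped each other. The log2 fold change was −2.43 for KPC against control (SE 0.55, edgeR adjusted p = 0.0037) and 2.36 for KPC+GnP against KPC (SE 0.55, edgeR adjusted p = 0.00436). Without KPC 1 these were −3.69 and 3.60 (edgeR adjusted p = 7.38e-08 and 8.87e-08). Its promoter window was the one above with no GC box. The summed level of 7 epithelial markers, 5 of them measured, was 0.562 to 1.95 CPM in KPC+GnP muscle. It was 1.45 to 4.75 CPM in KPC muscle and 0.340 to 3.66 CPM in control muscle. The part of epithelial cells in the result for Itgb6 was not tested.

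Itgav, the alpha partner of Itgb6 and Itgb5, had 50.6, 49.4, 49.6 and 36.2 CPM in KPC+GnP muscle, 25.0, 27.4, 28.0 and 26.1 CPM in KPC muscle and 38.8, 38.1, 44.0 and 39.2 CPM in control muscle. The KPC libraries lay close together and below all others, and its log2 fold change was −0.59 for KPC against control (SE 0.11, edgeR adjusted p = 0.00163) and 0.80 for KPC+GnP against KPC (SE 0.11, edgeR adjusted p = 0.000465). Itgb5, a receptor subunit for vitronectin, had 90.4, 76.4, 81.8 and 89.1 CPM in KPC+GnP muscle, 83.4, 133, 130 and 147 CPM in KPC muscle and 91.6, 81.9, 85.8 and 83.3 CPM in control muscle. Only KPC 1 overlapped with the other groups. On the log2 scale Itgb5 differed by 0.53 for KPC against control (SE 0.15, edgeR adjusted p = 0.011) and by −0.55 for KPC+GnP against KPC (SE 0.15, edgeR adjusted p = 0.00907). With scaling by library totals alone these were 0.37 and −0.31 and did not pass (edgeR adjusted p = 0.0725 and 0.123). Of the summed FPKM of the beta subunits, Itgb5 took 26.8 ± 2.52% in KPC+GnP muscle, 40.9 ± 5.76% in KPC muscle and 27.2 ± 1.63% in control muscle, and Itgb6 took 8.61 ± 1.04%, 1.97 ± 2.47% and 9.05 ± 1.94% in the same order of groups. Itgb3, which also pairs with Itgav, stayed at or below 2.44 CPM in muscle and did not pass.

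Itga4 (chromosome 2, 79255426 to 79333123), which with Itgb1 or Itgb7 binds VCAM-1 and fibronectin and is best known from leukocytes, had 14.8, 23.8, 16.4 and 10.5 CPM in KPC+GnP muscle, 10.7, 1.25, 2.42 and 1.90 CPM in KPC muscle and 17.1, 12.9, 12.9 and 17.3 CPM in control muscle. Again KPC 1 stood apart, level with the lowest KPC+GnP library. The log2 fold change was −1.90 for KPC against control (SE 0.53, edgeR adjusted p = 0.0104) and 2.02 for KPC+GnP against KPC (SE 0.53, edgeR adjusted p = 0.00764), and without KPC 1 it was −3.04 and 3.15 (edgeR adjusted p = 1.95e-06 and 1.5e-06). An exon of Itga4 overlaps one of Cerkl on the opposite strand, and the use of strand in counting is not given, so its counts may hold reads of both. Itgb7, its leukocyte partner, was at 0.511, 1.41, 1.07 and 1.17 CPM in KPC+GnP muscle, 0.395, 0.156, 0.287 and 0.331 CPM in KPC muscle and 0.864, 1.26, 1.13 and 0.903 CPM in control muscle, without overlap of KPC with either group. Its log2 fold change was −1.82 for KPC against control (SE 0.37, edgeR adjusted p = 0.0021) and 1.83 for KPC+GnP against KPC (SE 0.37, edgeR adjusted p = 0.00204). At no more than 0.395 CPM, the KPC libraries held few reads of Itgb7. It passed the low-count filter through the KPC+GnP and control libraries, which bears on both calls and on the lack of overlap. The summed level of 6 leukocyte markers was 8.48 to 41.8 CPM in KPC+GnP muscle, 4.52 to 12.6 CPM in KPC muscle and 10.4 to 21.8 CPM in control muscle. For KPC against control 0 of 6 were called, against 49.7% of all genes. For KPC+GnP against KPC 3 of 6 were higher, against 23.1% of all genes. The part of leukocytes in the results for Itga4 and Itgb7 was not tested.

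**Figure D3:**
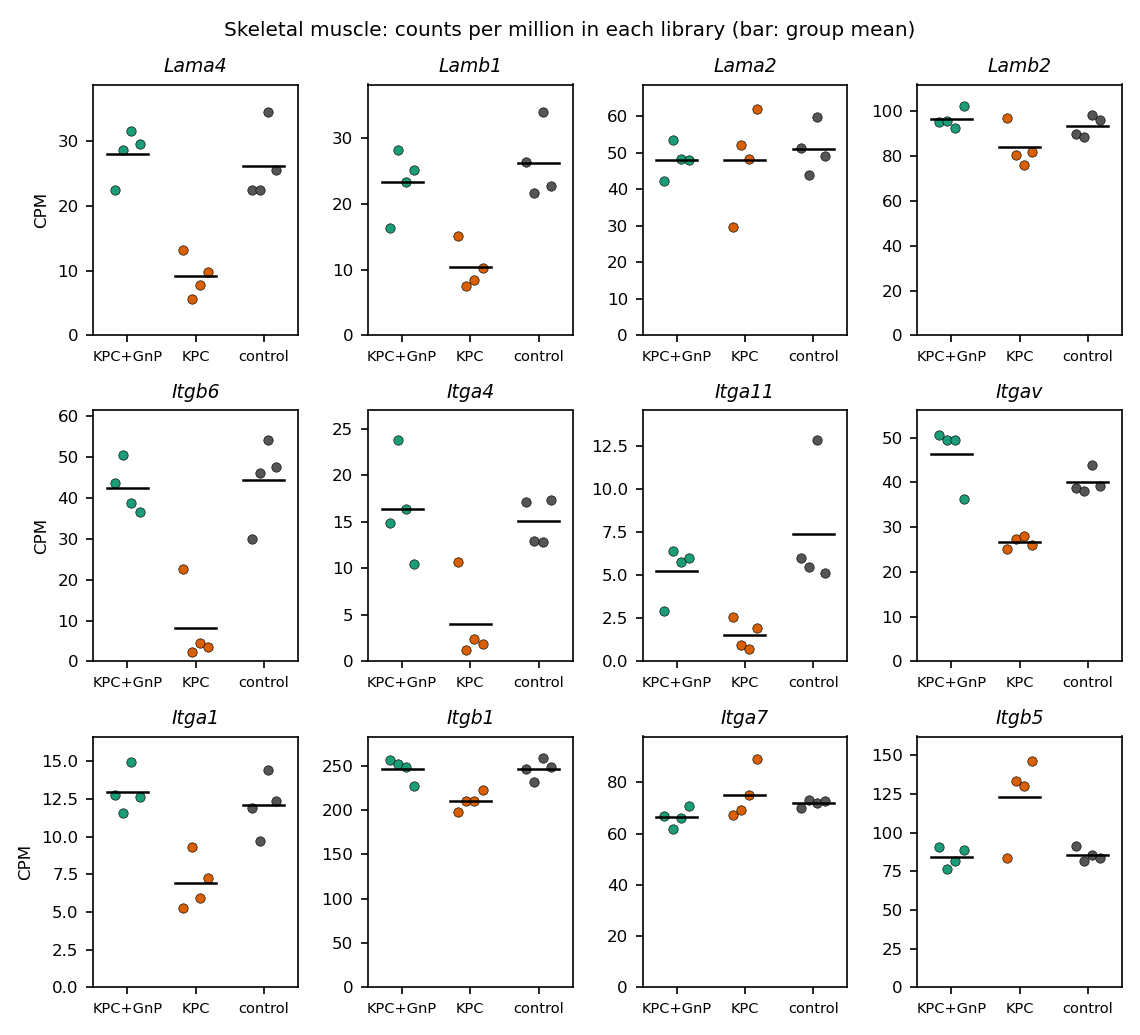
Level in CPM (vertical axes, each starting at 0) of 12 genes in the 12 muscle libraries, with 1 point per library, columns for KPC+GnP, KPC and control from left to right and a bar at each group's mean. For Lama4, Lamb1, Itgb6, Itga4, Itga11, Itgav and Itga1 the KPC points lie low, with KPC 1 the highest KPC point for Itgb6 at 22.7 CPM and for Itga4 at 10.7 CPM, while Lama2 and Itga7 overlap and Itgb5 is high in 3 of the 4 KPC libraries.

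Of the collagen-binding alpha subunits, Itga11, known from fibroblasts, had 2.91, 6.41, 5.76 and 5.98 CPM in KPC+GnP muscle, 2.59, 0.974, 0.737 and 1.94 CPM in KPC muscle and 6.00, 5.49, 12.9 and 5.16 CPM in control muscle. All KPC libraries were below all others, and control 3 was the highest. Its log2 fold change was −2.24 for KPC against control (SE 0.42, edgeR adjusted p = 0.00133) and 1.76 for KPC+GnP against KPC (SE 0.42, edgeR adjusted p = 0.00473). Itga1, a receptor for basement membrane collagen, had 12.8, 11.5, 14.9 and 12.6 CPM in KPC+GnP muscle, 5.26, 9.27, 5.90 and 7.27 CPM in KPC muscle and 11.9, 9.71, 14.4 and 12.3 CPM in control muscle. The groups did not overlap with KPC, which was lower by a log2 fold change of −0.80 against control (SE 0.18, edgeR adjusted p = 0.00344), and KPC+GnP was higher than KPC by 0.90 (SE 0.18, edgeR adjusted p = 0.00187). Itga10, the third of these subunits measured in muscle, ranged from 0.409 to 1.99 CPM over all muscle libraries and did not pass. Itga8, which binds nephronectin, had 1.38, 2.95, 1.25 and 1.75 CPM in KPC+GnP muscle, 0.833, 0.779, 0.819 and 1.24 CPM in KPC muscle and 2.14, 1.12, 2.26 and 2.48 CPM in control muscle. Control 2 lay below KPC 4. Itga9, which binds tenascin C and VCAM-1, had 6.74, 10.1, 7.48 and 8.95 CPM in KPC+GnP muscle, 7.37, 7.40, 6.35 and 6.86 CPM in KPC muscle and 8.49, 10.2, 14.1 and 9.82 CPM in control muscle. KPC lay below control and overlapped KPC+GnP. Both were lower in KPC than in control muscle, by −1.12 for Itga8 (SE 0.34, edgeR adjusted p = 0.0151) and −0.61 for Itga9 (SE 0.17, edgeR adjusted p = 0.0117) on the log2 scale. The mean of Itga8 in KPC+GnP muscle, 1.83 CPM, was higher than the 0.918 CPM of KPC muscle (edgeR adjusted p = 0.0264), a call lost without KPC 2, KPC 3 or KPC+GnP 2 (0.92, 0.94 and 0.67). Itga9 did not pass for KPC+GnP against KPC (0.25, SE 0.17, edgeR adjusted p = 0.238), except with scaling by library totals alone (0.50).

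Itga7 and Itgb1 form the laminin-binding pair of the muscle fibre. Itga7 had 66.8, 61.8, 65.9 and 70.8 CPM in KPC+GnP muscle, 67.4, 69.0, 75.2 and 89.2 CPM in KPC muscle and 69.8, 73.0, 71.7 and 72.7 CPM in control muscle, with a log2 fold change of 0.07 for KPC against control (SE 0.10, edgeR adjusted p = 0.597). For KPC+GnP against KPC it was −0.18 (SE 0.10, edgeR adjusted p = 0.15), and −0.23 without KPC 1 (edgeR adjusted p = 0.0434). Itgb1 had 257, 252, 249 and 227 CPM in KPC+GnP muscle, 198, 210, 210 and 222 CPM in KPC muscle and 246, 232, 259 and 248 CPM in control muscle. The KPC libraries were below all others, but the step was small, with log2 fold changes of −0.23 for KPC against control (SE 0.09, edgeR adjusted p = 0.0431) and 0.23 for KPC+GnP against KPC (SE 0.09, edgeR adjusted p = 0.0425). Both Itgb1 calls were lost with no low-count filter, with the 2 groups fitted alone and without most single libraries: for KPC against control, any of the control libraries or KPC 2, 3 or 4, and for KPC+GnP against KPC, KPC 2, 3 or 4 or KPC+GnP 1, 2 or 3. Itga6, the laminin receptor subunit of endothelium and epithelium, had 28.6, 23.9, 29.2 and 31.2 CPM in KPC+GnP muscle, 17.9, 26.1, 15.5 and 17.2 CPM in KPC muscle and 19.9, 18.8, 31.2 and 31.3 CPM in control muscle. It passed for KPC+GnP against KPC, at 0.55 (SE 0.20, edgeR adjusted p = 0.0368), a call lost without KPC 3, KPC 4 or KPC+GnP 1, 3 or 4 (0.46 to 0.54), and did not pass for KPC against control, at −0.40 (SE 0.20, edgeR adjusted p = 0.115), where it passed without control 2 or KPC 2 (−0.52 and −0.58). Itgb4, the partner of Itga6 in epithelia and nerve sheaths, had 4.34, 4.78, 7.71 and 9.72 CPM in KPC+GnP muscle, 3.38, 4.52, 1.76 and 3.92 CPM in KPC muscle and 5.49, 2.96, 4.92 and 6.55 CPM in control muscle. It passed only for KPC+GnP against KPC, at 0.97 (SE 0.33, edgeR adjusted p = 0.0292), and not without KPC 3, KPC+GnP 3 or KPC+GnP 4 (0.75, 0.88 and 0.72).

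Itga5, the fibronectin receptor subunit, had 7.87 to 12.04 CPM in KPC+GnP muscle, 7.37 to 22.0 CPM in KPC muscle and 7.91 to 16.7 CPM in control muscle and did not pass. Without KPC 1 it passed in both comparisons, at a log2 fold change of 0.76 for KPC against control and −0.81 for KPC+GnP against KPC, and without control 3 it passed against control at 0.84. A further 7 members tested in muscle (Itga2b, Itga3, Itgal, Itgam, Itgax, Itgb2 and Itgb3) did not pass in any muscle comparison. With 1 KPC+GnP library left out, Itgam, Itgb2, Itga10 and Lamb3 passed for KPC+GnP against KPC, at 1.12 without KPC+GnP 1, 1.21 without KPC+GnP 4, 1.36 without KPC+GnP 3 and 1.39 without KPC+GnP 2. Of these Itgal, Itgam, Itgax and Itgb2, which form the leukocyte integrins, reached at most 12.4 CPM, in the library KPC+GnP 2, which also held the highest leukocyte marker sum of the muscle libraries, 41.8 CPM.

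Partners of these genes in the basement membrane moved with them in muscle. Of 17 measured basement membrane partners, 12 were lower and 0 higher in KPC than in control muscle, against 22.1% of all genes lower and 27.5% higher. Their median log2 fold change was −1.06, against −0.0026 for all genes. Among them were Nid1 (nidogen), which links laminin to collagen, at 37.3 CPM in KPC muscle and 99.3 CPM in control muscle on average (−1.41, edgeR adjusted p = 0.000372), and Hspg2 (perlecan) at 77.6 and 163 CPM (−1.07, edgeR adjusted p = 0.000341). In KPC+GnP against KPC muscle 12 of 17 were higher and 0 lower, against 23.1% of all genes higher and 26.7% lower, with Nid1 at 1.27 (edgeR adjusted p = 0.000517) and Ntn4 (netrin 4, which binds laminin) at 1.55 (edgeR adjusted p = 0.000502). Of 23 other integrin ligands 12 were lower and 1 higher in KPC than in control muscle, and 15 were higher and 2 lower in KPC+GnP than in KPC muscle, to be read against the same shares of all genes. Tnxb (tenascin X) was lower in KPC than in control muscle by −1.65 and Tnc (tenascin C, the ligand of Itga9) by −2.61 on the log2 scale, and the higher gene was Cyr61, at 1.45. Npnt, the ligand of Itga8, was higher in KPC+GnP than in KPC muscle by 1.47 (edgeR adjusted p = 0.00129).

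Receptors other than integrins went both ways. Dag1, the dystroglycan precursor, averaged 482 CPM in KPC muscle and 295 CPM in control muscle (0.71, SE 0.22, edgeR adjusted p = 0.0178), and 310 CPM in KPC+GnP muscle (−0.64 against KPC, SE 0.22, edgeR adjusted p = 0.0284), with overlapping groups. Of the 7 other laminin receptors, which include Dag1, 2 were higher and 4 lower in KPC than in control muscle, and 5 were higher and 2 lower in KPC+GnP than in KPC muscle. Syndecan genes Sdc2 and Sdc1 were lower in KPC than in control muscle, by −1.36 and −1.17, and Mcam by −0.65. Of the 12 genes measured that glycosylate dystroglycan so that it can bind laminin, 4 were lower and 2 higher in KPC than in control muscle, among them Large at −0.70 and Pomt2 at 0.65, and 3 were higher and 3 lower in KPC+GnP than in KPC muscle. Of 34 proteins that link integrins to the cytoskeleton, 9 were lower and 8 higher in KPC than in control muscle, and 14 were higher and 7 lower in KPC+GnP than in KPC muscle. Over all genes 22.1% were lower and 27.5% higher in KPC than in control muscle, and 23.1% were higher and 26.7% lower in KPC+GnP than in KPC muscle. The adhesion protein counts for KPC against control lie near those shares. Sorbs3 (vinexin) averaged 260 CPM in KPC muscle and 80.6 CPM in control muscle (1.69, edgeR adjusted p = 0.000363), and Pxn (paxillin) 135 and 78.0 CPM (0.80), while Parva (parvin) averaged 9.80 and 19.6 CPM (edgeR adjusted p = 0.000841).

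Markers of several stromal cell types moved as most of the called members did in muscle. Their counts of calls stand beside 22.1% of all genes lower and 27.5% higher in KPC than in control muscle. For KPC+GnP against KPC muscle the shares of all genes were 23.1% higher and 26.7% lower. The summed level of 6 fibroblast markers was 528 to 846 CPM in KPC+GnP muscle, 210 to 330 CPM in KPC muscle and 625 to 1385 CPM in control muscle, with 6 of 6 lower in KPC than in control and 6 of 6 higher in KPC+GnP than in KPC muscle. For 7 pericyte and smooth muscle markers the ranges were 226 to 259, 111 to 171 and 177 to 273 CPM in the same order of groups, with 6 of 7 lower and then 6 of 7 higher, and for 4 tendon markers they were 63.6 to 85.1, 12.8 to 36.2 and 56.2 to 155 CPM, with 4 of 4 lower and then 4 of 4 higher. The 6 Schwann cell markers summed to 52.3 to 245 CPM in KPC+GnP muscle, 25.5 to 56.3 CPM in KPC muscle and 43.5 to 144 CPM in control muscle, with 3 of 6 lower and then 4 of 6 higher. For 7 endothelial markers the ranges overlapped, at 178 to 265, 162 to 274 and 192 to 254 CPM, with 3 lower and 2 higher in KPC than in control muscle. In the fibroblast, pericyte, tendon, Schwann and endothelial lists 0 markers were at 0 in any muscle library. The part of these cells in the results for the members was not tested.

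In heart the members lower in KPC mice were adhesion receptors and the higher ones mostly blood-cell integrins. In KPC against control heart 8 of 35 members passed, 4 lower (Itga1, Itga9, Itga11 and Itgb6) and 4 higher (with Itgam, Itgb2 and Itgb3 among them), against 9.34% of all 13846 genes tested, 4.38% lower and 4.95% higher. The median log2 fold change was 0.11 for the members and 0.022 for all genes. Scaled by library totals alone, the all-gene median was 0.17, and 7 members were higher and 4 lower, against 9.88% of all genes higher and 2.38% lower. All KPC libraries lay below all control libraries for 7 members, against 8.43% of all genes, and above them for 2, against 5.97%. The count of calls depended on the tool and on single libraries, for the members as for all genes. DESeq2 called 14 members, 8 higher and 6 lower, against 18% of all genes. Limma called 4, all lower, against 7.48%. The fit of the 2 groups alone called 2, both lower, against 1.71%. With 1 library left out 3 to 17 members were called, against 0.742 to 25.4% of all genes.

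Itga9 (chromosome 9, 118606690 to 118901003), the receptor subunit for tenascin C, VCAM-1 and osteopontin, had 62.5, 73.0, 57.0 and 58.4 CPM in KPC+GnP heart, 60.7, 38.3, 37.6 and 52.7 CPM in KPC heart and 104, 105, 127 and 112 CPM in control heart. Every library of both tumour groups lay below every control library. The log2 fold change was −1.24 for KPC against control (SE 0.16, edgeR adjusted p = 0.00294) and −0.83 for KPC+GnP against control (SE 0.16, edgeR adjusted p = 0.0337). Itgb6 had 9.18, 14.7, 13.9 and 11.9 CPM in KPC+GnP heart, 10.2, 3.53, 3.88 and 8.08 CPM in KPC heart and 28.4, 33.5, 46.9 and 31.1 CPM in control heart. It too was lower in every tumour library, by −2.43 for KPC against control (SE 0.32, edgeR adjusted p = 0.0034) and by −1.49 for KPC+GnP against control (SE 0.31, edgeR adjusted p = 0.0418). For KPC against control Itga9 and Itgb6 passed under every alternative run. For KPC+GnP against control 2 of 35 members passed, 2 lower against 0.412% of all genes and 0 higher against 0.816%, or 1.23% in all. In that comparison all KPC+GnP libraries lay below all control libraries for 10 members, against 8.6% of all genes, and above them for 2, against 7.28%. Neither call held without any 1 of the control libraries, at −0.77 to −0.87 for Itga9 and −1.32 to −1.58 for Itgb6, and with 1 KPC+GnP library left out the Itgb6 call was lost for each of the 4 and the Itga9 call without KPC+GnP 1, 2 or 3.

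Itga11 had 3.16, 3.14, 2.87 and 2.68 CPM in KPC+GnP heart, 1.78, 0.803, 1.19 and 2.00 CPM in KPC heart and 4.61, 7.95, 3.70 and 3.86 CPM in control heart. The 3 groups did not overlap, and the log2 fold change was −1.80 for KPC against control (SE 0.33, edgeR adjusted p = 0.0146), which passed in every alternative run but the fit of the 2 groups alone (edgeR adjusted p = 0.0542). Itga1 had 41.3, 38.3, 26.8 and 36.2 CPM in KPC+GnP heart, 30.7, 28.7, 30.8 and 46.9 CPM in KPC heart and 66.5, 60.3, 55.3 and 52.4 CPM in control heart. Control libraries were the highest and KPC 4 the highest of the KPC libraries, at a log2 fold change of −0.77 for KPC against control (SE 0.17, edgeR adjusted p = 0.0263), lost without any 1 control library or without KPC 2 or KPC 3 (−0.67 to −0.82). The summed level of 6 fibroblast markers was 1170 to 1769 CPM in KPC+GnP heart, 926 to 2483 CPM in KPC heart and 875 to 1660 CPM in control heart. Of these fibroblast markers 1 was higher for KPC against control, against 4.95% of all genes, and 0 lower, against 4.38%. The part of these cells in the heart results was not tested.

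**Figure D4:**
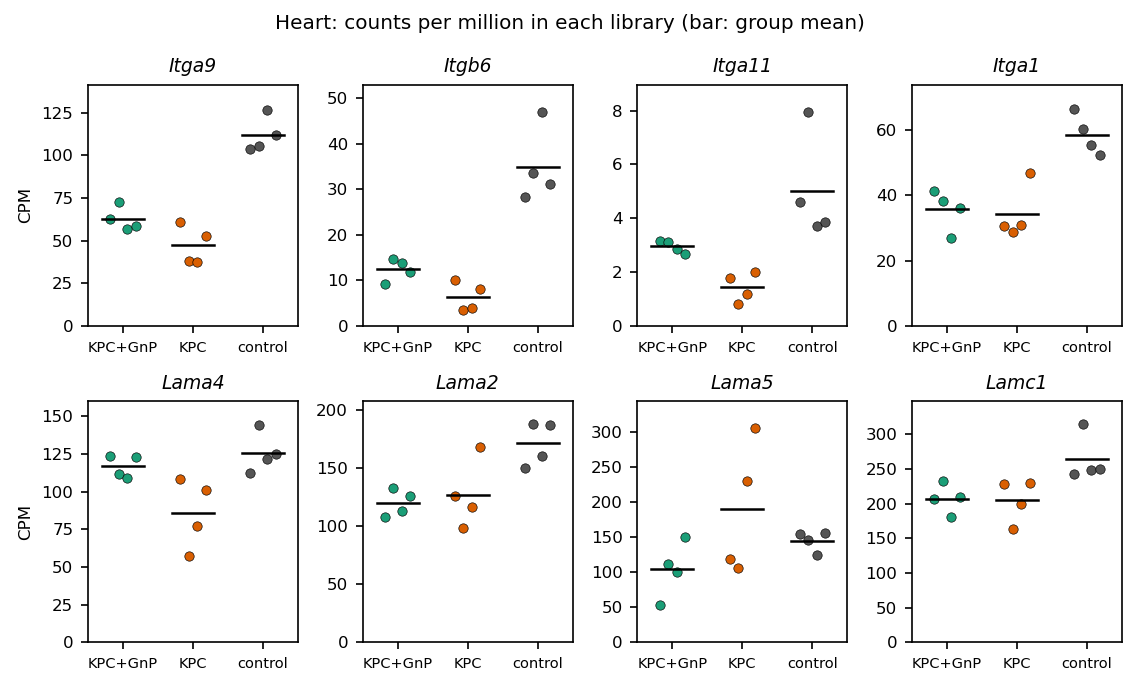
Level in CPM (vertical axes, each starting at 0) of 8 genes in the 12 heart libraries, with 1 point per library, columns for KPC+GnP, KPC and control from left to right and a bar at each group's mean. For Itga9, Itgb6, Itga11 and Itga1 all control points lie above all KPC points, while Lama4, Lama2, Lama5 and Lamc1 vary among the KPC hearts, with Lama5 between 106 and 307 CPM.

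The integrins that rose in KPC heart are those of leukocytes and platelets. Itgam, the alpha subunit of the complement receptor of myeloid cells, had 15.4, 10.3, 23.5 and 9.56 CPM in KPC+GnP heart, 31.7, 357, 44.2 and 10.7 CPM in KPC heart and 6.51, 14.0, 6.82 and 7.66 CPM in control heart. KPC 2 was far above all other libraries and KPC 4 was within the range of the control hearts. For KPC against control its log2 fold change was 3.66 (SE 0.91, edgeR adjusted p = 0.0342), and without KPC 2 it was 1.74 (edgeR adjusted p = 0.0636). Itgb2, the beta subunit shared by the leukocyte integrins, had 14.2, 11.4, 21.3 and 9.92 CPM in KPC+GnP heart, 26.6, 169, 34.2 and 8.48 CPM in KPC heart and 7.17, 13.6, 6.24 and 7.83 CPM in control heart. The order of the libraries was the same as for Itgam in the KPC hearts, and the log2 fold change was 2.77 (SE 0.73, edgeR adjusted p = 0.0395), or 1.43 without KPC 2 (edgeR adjusted p = 0.0913). Itgb3, which pairs with Itga2b on platelets, had 16.03, 12.7, 14.3 and 15.8 CPM in KPC+GnP heart, 38.2, 57.5, 41.7 and 5.61 CPM in KPC heart and 4.32, 12.7, 4.42 and 8.56 CPM in control heart. Only KPC 4 fell within the control range, and the log2 fold change was 2.24 (SE 0.55, edgeR adjusted p = 0.033), or 1.94 without KPC 2 (edgeR adjusted p = 0.0771). The calls of Itgam and Itgb2 were also lost without any 1 control library or KPC 3, and that of Itgb3 without control 1, 3 or 4 or KPC 3. With limma and with the 2 groups fitted alone 0 members were called higher. The limma adjusted p was 0.0704 for Itgam, 0.0813 for Itgb2 and 0.0646 for Itgb3. The edgeR adjusted p with the 2 groups alone was 0.0802 for Itgam, 0.0882 for Itgb2 and 0.081 for Itgb3.

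The other subunits known from blood cells were not called for KPC against control heart. Itga2b had 4.61 to 63.2 CPM in KPC heart and 2.63 to 15.8 CPM in control heart, at 2.305 (SE 0.67, edgeR adjusted p = 0.0518), and passed without KPC 4 at 2.67 (edgeR adjusted p = 0.00411), with DESeq2 and with scaling by library totals alone. Itgax, Itgae, Itgal, Itga4 and Itgb7 had log2 fold changes of 1.85, 2.16, 1.37, 1.63 and 2.12, none past the threshold, and of these Itgax, Itgae and Itga4 passed without KPC 4, at 2.03, 2.24 and 1.94. Itga4 stood at 51.9 CPM in KPC 2 and at 4.98 to 10.1 CPM in the other KPC hearts. Itgb7 stood at 18.9 CPM in KPC 2 and at 1.51 to 2.299 CPM in the others, and Itgal at 26.49 and 2.07 to 5.87 CPM. Without KPC 2 the log2 fold changes of Itga4, Itgb7 and Itgal were 0.22, 0.39 and 0.14. Those of Itgax and Itgae were 1.078 and 1.87 and that of Itga2b was 1.99, none past the threshold. Itgae had 0.756 to 1.93 CPM in KPC heart and at most 0.439 CPM in control heart. It passed the low-count filter chiefly through the KPC libraries, which bears on its results here.

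Marker sums of blood cells were high in some KPC hearts, as these members were. Most neutrophil markers were called, and most markers of the other lists were not. The counts of calls for KPC against control heart stand beside 4.95% of all genes higher and 4.38% lower. The 6 leukocyte markers summed to 50.02 to 123 CPM in KPC+GnP heart, to 135, 750, 130 and 63.2 CPM in KPC heart and to 52.0 to 85.0 CPM in control heart, with 1 of 6 called higher for KPC against control. The 6 platelet markers, which do not include Itga2b or Itgb3, summed to 35.1 to 59.2 CPM in KPC+GnP heart, to 119, 202, 97.3 and 16.4 CPM in KPC heart and to 17.1 to 53.3 CPM in control heart, with 1 of 6 called higher. Neutrophil markers, 4 of 5 tested called higher, summed to 20.4 to 257 CPM in KPC heart and 4.93 to 15.01 CPM in control heart, and macrophage markers, 2 of 6 called higher, to 291 to 1702 and 245 to 450 CPM. The 4 B cell markers, 0 of them called, reached 287 CPM in KPC 2 and at most 9.20 CPM in the other KPC hearts. Of T and NK cell markers 0 of 3 tested were called, with sums of 0.468 to 8.67 CPM in KPC heart and 0.447 to 1.55 CPM in control heart. No heart library was at 0 for any measured leukocyte, platelet, macrophage or B cell marker. The part of blood in the hearts in these results was not tested.

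**Figure D5:**
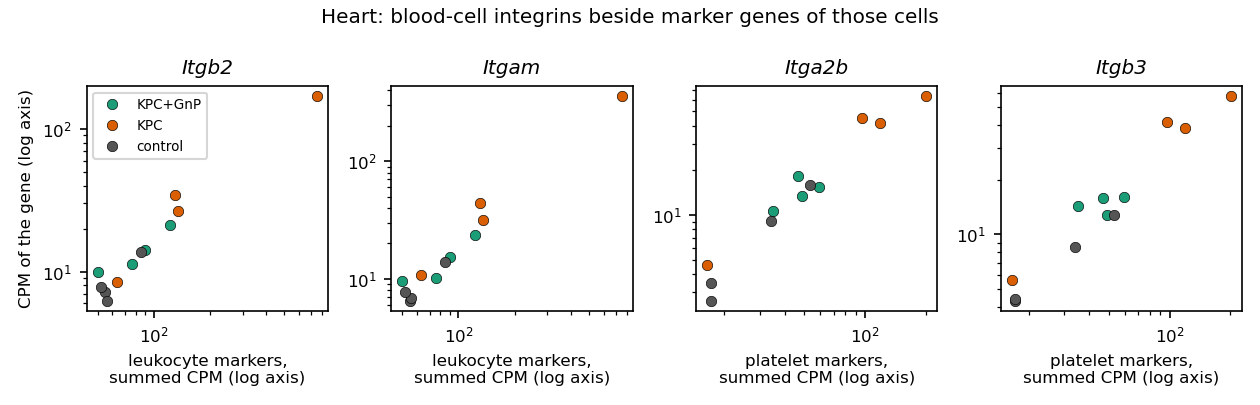
Level of Itgb2 and Itgam against the summed level of 6 leukocyte markers, and of Itga2b and Itgb3 against that of 6 platelet markers (all axes in CPM, logarithmic), with 1 point per heart library coloured by group. The library KPC 2 is the point at the upper right, with 750 CPM of leukocyte markers and 202 CPM of platelet markers, and 1 KPC library, KPC 4, lies among the control points.

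Among the laminins of the heart, Lama4 had 124, 112, 109 and 123 CPM in KPC+GnP heart, 108, 57.6, 77.1 and 101 CPM in KPC heart and 112, 144, 122 and 125 CPM in control heart. All KPC libraries lay below all others but the step did not pass, at −0.55 for KPC against control (SE 0.17, edgeR adjusted p = 0.063), and it passed without KPC 1 or KPC 4 (−0.68 and −0.63). Lama2, the fibre chain, had 108, 133, 114 and 126 CPM in KPC+GnP heart, 126, 98.6, 117 and 168 CPM in KPC heart and 151, 188, 161 and 187 CPM in control heart. Lama2 differed by −0.43 for KPC against control (SE 0.15, edgeR adjusted p = 0.0904) and −0.51 for KPC+GnP against control (SE 0.15, edgeR adjusted p = 0.105), and without KPC 4 it passed against control at −0.59 (edgeR adjusted p = 0.0089). Lamb2 had 302, 336, 256 and 428 CPM in KPC+GnP heart, 271, 202, 334 and 422 CPM in KPC heart and 366, 363, 359.7 and 401 CPM in control heart. The tumour groups lay on both sides of the control hearts. Lamc1 had 207, 232, 181 and 209.7 CPM in KPC+GnP heart, 228, 164, 199 and 230.5 CPM in KPC heart and 243, 315, 249 and 251 CPM in control heart. All its tumour libraries lay below all control libraries. Lamb1 had 103, 99.7, 112 and 85.0 CPM in KPC+GnP heart, 107, 89.5, 101 and 121 CPM in KPC heart and 108, 137, 136 and 109 CPM in control heart, with overlapping groups. None of Lamb2, Lamc1 and Lamb1 passed in edgeR, at −0.28, −0.36 and −0.22 for KPC against control (SE 0.21, 0.14 and 0.13).

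In KPC+GnP against KPC heart edgeR called 0 of 35 members, against 1.55% of all genes, with 1.13% higher and 0.412% lower, while 16 members had an unadjusted p under 0.05, against 20.8% of all genes. All KPC+GnP libraries lay above all KPC libraries for 2 members, Itga11 and Lama4, against 4.3% of all genes, and below them for 1, Itgae, against 3.8%. Itgae had 0.0893 to 0.749 CPM in KPC+GnP heart and 0.756 to 1.93 CPM in KPC heart. It passed the low-count filter chiefly through the KPC libraries, which bears on its lack of overlap and on its call given below. DESeq2 called 2, Itga8 higher at 1.87 and Itgam lower at −2.92, against 8.2% of all genes, and limma called 0, against 0.636%. Itga8 had 30.3, 8.88, 4.62 and 6.61 CPM in KPC+GnP heart and 4.31, 1.61, 2.695 and 5.14 CPM in KPC heart, with KPC+GnP 1 far above the rest and 1 KPC+GnP library inside the KPC range. Without KPC 4 Itgb2, Itga2b, Itgb3 and Itgam were called, at −2.43, −1.80, −1.64 and −3.29, and without KPC+GnP 3 Itgae was, at −2.78. Itgb4 was higher in every KPC+GnP heart than in every control heart, at 12.6, 12.3, 17.9 and 10.1 CPM in KPC+GnP heart against 3.37, 6.64, 2.18 and 4.31 CPM in control heart, with a log2 fold change of 1.68 that did not pass (SE 0.40, edgeR adjusted p = 0.0615). It passed with scaling by library totals alone, with DESeq2 and with the 2 groups fitted alone.

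The other abundant integrin subunits of heart did not pass in any heart comparison in edgeR. Itga7 had 106, 145, 142 and 157 CPM in KPC+GnP heart, 163, 92.2, 151 and 182 CPM in KPC heart and 173, 166, 185 and 195 CPM in control heart. KPC+GnP lay below control, and KPC overlapped both. Itgb1 had 537, 546, 471 and 519 CPM in KPC+GnP heart, 592, 642, 480.1 and 499.7 CPM in KPC heart and 572, 571, 571 and 567 CPM in control heart. The KPC libraries lay on both sides of the control hearts. On the log2 scale Itga7 was at −0.29 (SE 0.19) and Itgb1 at −0.04 (SE 0.11) for KPC against control. Itga6 had 83.3, 93.6, 64.8 and 99.96 CPM in KPC+GnP heart, 81.3, 114, 71.3 and 93.1 CPM in KPC heart and 112, 120.2, 116 and 117 CPM in control heart. Of the KPC libraries only KPC 2 reached the control range. Itgb5 had 111, 95.4, 97.9 and 114 CPM in KPC+GnP heart, 101, 99.1, 122 and 111 CPM in KPC heart and 111, 111, 117 and 107 CPM in control heart, with all groups overlapping. Itga6 was at −0.37 (SE 0.16) and Itgb5 at −0.04 (SE 0.10) for KPC against control.

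Around the members in heart, 5 of 18 basement membrane partners were lower and 0 higher in KPC than in control heart, against 4.38% of all genes lower and 4.95% higher. Col15a1, a basement membrane collagen, averaged 38.7 CPM in KPC heart and 149 CPM in control heart (−1.95, edgeR adjusted p = 0.00726), and Col4a1, a chain of the main basement membrane collagen, 361 and 623 CPM (−0.79, edgeR adjusted p = 0.0272). Of 23 other integrin ligands 5 were higher and 0 lower. Spp1 (osteopontin, a ligand of Itga9 and of the integrins with Itgav) averaged 100.5 CPM in KPC heart and 0.551 CPM in control heart (edgeR adjusted p = 0.0297), and Thbs1 (thrombospondin) 267 and 18.1 CPM (edgeR adjusted p = 0.0379). The control hearts held few reads of Spp1. All these ligands summed to 1222 to 4703 CPM in KPC heart and 1093 to 1572 CPM in control heart. Alternatives were read for the members only, so the dependence of the ligand calls on single hearts was not tested. Dag1 did not pass in heart, at −0.31 (SE 0.13, edgeR adjusted p = 0.137). Of 12 dystroglycan glycosylation genes 1 was lower, Pomt1 at −0.51, and of 35 integrin adhesion proteins 4 were higher and 2 lower, among them Actn1 at 1.24 and Sorbs3 at 0.81.

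The differences between KPC and control themselves differed between muscle and heart for 11 of 35 members in a fit of all 24 libraries, 10 with a lower value in muscle and 1 with a higher one, against 25.8% of all 14509 genes, 13.4% lower and 12.4% higher. Lama4 was at −1.05 (SE 0.30, edgeR adjusted p = 0.0156) and Lamb1 at −1.18 (SE 0.28, edgeR adjusted p = 0.00517) for muscle minus heart, and Itgb5 at 0.49 (SE 0.17, edgeR adjusted p = 0.0399). The others were Itga2b, Itga4, Itgae, Itgam, Itgb2, Itgb3 and Itgb7, known from blood cells though not only from them, and the collagen receptor subunit Itga2, from −2.70 to −4.00. Of these, Itga2 and Itgae had at most 16 counts in any muscle library and failed the low-count filter in muscle alone. Their differences between tissues therefore rest on very few muscle reads. With the animal as a block, over the 16 libraries of the 8 animals that gave both tissues, 0 of 35 passed. At an unadjusted edgeR p under 0.05 there were 13 members, and the share of all genes at that level was not counted. Over all 14477 genes 1 passed the adjusted threshold under the block, so the 0 calls say nothing particular to the members. Lama4 was then at −0.66 (edgeR adjusted p = 0.124), Lamb1 at −0.99 (edgeR adjusted p = 0.123) and Itgb5 at 0.39 (edgeR adjusted p = 0.326). Without the heart library KPC 2 the calls of Itgb5 (0.44), Itga2 (−2.36), Itga2b (−2.37), Itgae (−2.90), Itgam (−1.67) and Itgb2 (−1.796) were lost. Itgb7 was then at −2.26, Itga4 at −2.14 and Itgb3 at −2.85 and passed, as did Lama4 and Lamb1. Scaled by library totals alone, 16 members were lower and 0 higher, against 23.7% of all genes lower and 5.2% higher. For Itgb6 the difference between tissues was −0.05 (SE 0.68, edgeR adjusted p = 0.97). Without the muscle library KPC 1 it was −1.34 and passed (edgeR adjusted p = 0.0155). For Itga9 the difference between tissues was 0.56 (SE 0.23, edgeR adjusted p = 0.0751).

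The differences between KPC+GnP and KPC differed between the tissues for 10 of 35 members, all higher in muscle, against 25.7% of all genes, 12.5% higher and 13.2% lower. They included Lamb1 at 1.27 (SE 0.28, edgeR adjusted p = 0.00348), Lama4 at 1.22 (SE 0.30, edgeR adjusted p = 0.00713), Itga1 at 0.89 (SE 0.25, edgeR adjusted p = 0.0137) and Itgb1 at 0.37 (SE 0.13, edgeR adjusted p = 0.0464), beside Itga4, Itgae, Itgam, Itgb2, Itgb7 and Itgb8. Itgae and Itgb8, with at most 16 and 12 counts in any muscle library, failed the low-count filter in muscle alone. Their differences rest on very few muscle reads. Without the heart library KPC 2 the calls of Itgb1 (0.29), Itga4 (1.87), Itgam (1.83), Itgb2 (1.68) and Itgb7 (1.57) were lost. Itgb6 was at 1.44 and did not pass, and passed at 2.72 without the muscle library KPC 1. With the animal as a block 0 of 35 passed, against 25 of all 14477 genes, or 0.173%. At an unadjusted edgeR p under 0.05 there were 10 members, and the share of all genes at that level was not counted. Under the block Lamb1 was at 1.02 (edgeR adjusted p = 0.143), Lama4 at 0.74 (edgeR adjusted p = 0.133), Itga1 at 0.81 (edgeR adjusted p = 0.216) and Itgb1 at 0.29 (edgeR adjusted p = 0.547).

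In sham mice, muscle and heart differed for 25 of 35 members, 6 higher and 19 lower in muscle, against 59.5% of all genes, 29.2% higher and 30.3% lower. Of the laminin chains 8 of 10 were lower in muscle and 0 higher, and of the alpha subunits 9 were lower and 3 higher. Itga9 had the smallest p, at 13.99 CPM on average in control muscle and 86.5 CPM in control heart in the joint scaling (−2.63, SE 0.17, edgeR adjusted p = 1.54e-11). The members higher in muscle were Itga4 at 2.14, Itga11 at 1.31, Itgb6 at 1.12, Itgb4 at 1.03, Itgav at 0.93 and Itgb5 at 0.39 on the log2 scale. Scaled by library totals alone, which put the all-gene median at −0.70, 1 member was higher, Itga4 at 1.496, and 21 were lower, against 12.3% and 57.2% of all genes, and Itgb5 turned to −0.25 without passing. With the animal as a block 21 of 35 passed, 5 higher and 16 lower, against 50.1% of all genes, 25% higher and 25.1% lower.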

How the data were processed

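Bulk RNA was sequenced from muscle and heart of the same series of mice. Per the labels' protocols, 100 ng of total RNA extracted with miRNeasy went into KAPA mRNA Hyperprep libraries read as paired ends on an Illumina NovaSeq. The deposited counts are whole read counts per gene and the deposited log2 FPKM are a table per tissue, both made by the authors. The submitters' processing notes name FastQC 0.11.5, STAR 2.5, featureCounts, Subread 1.5.1, edgeR 3.12.1 and the build mm10, without saying which step made which table. No source used here names the annotation counted against or says whether counting used strand, so members whose exons overlap a gene on the other strand (Lama2, Lama3, Lamc3, Itga4, Itga7, Itga8, Itgav, Itgb4) are uncertain. Exons of Itga1, Itga10 and Itgam overlap a gene on the same strand. How reads shared there were counted is not given, so these members are uncertain too. Libraries were grouped by their labels. One muscle count column, assigned to the library KPC 1, differs in name from its sample's title by a final digit. No other column or title of that tissue's counts carries the same animal number, and 0 columns were left out.

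Counts were tested in R 4.3.3 with edgeR 4.0.16 (quasi-likelihood F test, trimmed mean of M values, filterByExpr with a minimum count of 10 and a total of 15, Benjamini-Hochberg threshold 0.05 over all genes), with the 3 groups of a tissue in 1 fit and all 24 libraries for comparisons of tissues. The test was tried on simulated counts first. Standard errors were the absolute log2 fold change over the square root of F. Alternatives were other size factors, library totals alone, no filter, DESeq2 1.42.0, limma 3.58.1 on log2 FPKM, 2 groups alone, each library left out and, between tissues, the animal as a block, since 8 animals gave both tissues (same-animal correlations of deviations from the group means ran from −0.272 to 0.346 over 10152 genes). FPKM and shares were back-transformed from the deposited log2 values. Per-library values are given for the reported members that were called in a comparison within a tissue or stood among the 3 highest FPKM of their class, and the 3 genes with the smallest p of each pathway list, and Dag1, could be named. Members whose values are printed outside this rule (Lama5 and Itga5 in muscle, Lama2, Lama4, Lama5, Lamb3, Lamc3, Itga4, Itga8, Itgb4 and uncalled blood-cell subunits in heart) were chosen after their values were seen. The members, gene lists and tests were chosen with earlier results of these data known. Some genes of these lists are not reported here. Gene positions are from GENCODE vM21 (GRCm38).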

Additional observations from a re-analysis of the deposited data

Results flagged for a closer look

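Dixon's 95% limit flags about 1 in 20 groups by chance where values are independent and normally distributed. The groups here share libraries and their CPM were not put on a log scale, so the count of flags is no measure of an excess. In 20 of 201 groups of 4 libraries, 1 library lay farther from the others than this limit. In muscle these were the library KPC 1 for Itgb6 at 22.7 CPM, Itga4 at 10.7 CPM and Itgax at 1.01 CPM, KPC 2 for Lama3 at 3.62 CPM, KPC 4 for Itga8 at 1.24 CPM, KPC+GnP 4 for Itgav at 36.2 CPM, and control 3 for Itga11 at 12.9 CPM and Itgb3 at 2.44 CPM. In heart the library KPC 2 was the farthest for Itgam at 357 CPM, Itgb2 at 169 CPM, Itga4 at 51.9 CPM, Itgal at 26.49 CPM, Itgb7 at 18.9 CPM and Itga2 at 5.89 CPM. The others in heart were KPC 4 for Itga1 at 46.9 CPM, KPC+GnP 1 for Itga8 at 30.3 CPM, control 2 for Itga8 at 11.5 CPM, Itgam at 13.99 CPM and Lamc1 at 315 CPM, and control 4 for Lamb2 at 401 CPM.

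The difference between KPC and control mice was tested between muscle and heart, and the log2 difference of muscle minus heart passed for Lama4 at −1.05, Lamb1 at −1.18, Itga2 at −3.77, Itga2b at −2.70, Itga4 at −3.57, Itgae at −3.21, Itgam at −3.60, Itgb2 at −3.15, Itgb3 at −3.17, Itgb5 at 0.49 and Itgb7 at −4.00. For KPC+GnP against KPC it passed for Lama4 at 1.22, Lamb1 at 1.27, Itga1 at 0.89, Itga4 at 3.30, Itgae at 3.44, Itgam at 3.76, Itgb1 at 0.37, Itgb2 at 3.04, Itgb7 at 3.31 and Itgb8 at 4.02. Itga2, Itgae and Itgb8 had at most 16 counts in any muscle library. With the animal as a block 0 of these passed in edgeR.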

How the results depend on the processing

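In muscle the number of members called stayed within 1.5 times that reported: 11 to 14 for KPC against control and 9 to 16 for KPC+GnP against KPC with 1 library left out, 11 to 13 and 12 to 16 under the other alternatives, and 0 for KPC+GnP against control throughout. Of the calls, 10 of 12 and 8 of 13 held in every alternative run. In heart, leaving out 1 library gave 3 to 17 calls for KPC against control (8 reported), 0 to 4 for KPC+GnP against KPC (0 reported) and 0 to 1 for KPC+GnP against control (2 reported). For KPC against control DESeq2 called 14, limma 4 and the 2 groups fitted alone 2. DESeq2 called 2 for KPC+GnP against KPC. For KPC+GnP against control DESeq2 called 5, limma 1 and the 2 groups alone 5. Of the heart calls for KPC against control, 2 of 8, Itga9 and Itgb6, held throughout. Between tissues, 1 library left out gave 5 to 18 calls for KPC against control and 5 to 15 for KPC+GnP against KPC, and the replicate block by animal gave 0 and 0 (1 and 25 of 14477 genes), with 16 libraries, 8 animals and 5 residual degrees of freedom. For muscle against heart of control mice the counts were 19 to 25 with 1 library left out, and Itgb5 was at −0.25 with library totals alone, against 0.39. Those totals moved the all-gene median to −0.17, 0.27 and 0.10 in muscle, 0.17, −0.0086 and 0.17 in heart, −0.38 and 0.27 between tissues and −0.70 for muscle against heart. The cause of these changes was not tested. Depth left Itga2, Itgae and Itgb8, with at most 16, 16 and 12 counts in a muscle library, untested in muscle, and the smallest step that 4 libraries a group can show was not measured.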

Other observations

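In heart Lamb3, a chain of epithelial laminin, had 27.0, 20.7, 14.2 and 31.4 CPM in KPC+GnP mice, 13.6, 6.90, 18.8 and 11.5 CPM in KPC mice and 9.59, 14.5, 11.5 and 18.1 CPM in control mice, and did not pass in edgeR. Lamc3 ranged from 0.468 CPM in KPC 4 to 22.2 CPM in KPC 1 among the KPC hearts, and from 0.952 to 3.47 CPM among the control hearts. Measured epithelial markers (5) summed to 14.3 to 197 CPM in KPC+GnP heart, 3.47 to 171 CPM in KPC heart and 5.71 to 35.5 CPM in control heart. For 4 mesothelial markers the ranges were 63.4 to 462, 18.6 to 401 and 46.6 to 249 CPM in the same order. Their part in the heart results for Lamb3, Lamc3, Itgb4 and Itga8 was not tested.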
